A study of Mus musculus with 8 samples.

Results

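The 51 genes described here are interferon-stimulated genes of the mouse jejunum, taken from a list of symbols that leaves out the guanylate-binding protein, Ifi200, Schlafen and Trim clusters. Each symbol matched 1 of the 56941 gene identifiers in the count table, and all 51 were among the 18025 genes with enough counts to be tested. The members were chosen by name and not by a cut on their values, although earlier results of these data were known. The study sequenced bulk jejunum RNA of naive C3H/HeJ mice (C3H, libraries numbered 1, 3, 4 and 5) and of naive C57BL/6 mice (B6, libraries numbered 2, 3, 4 and 5). Both inbred strains were untreated, shared cages for 8 weeks or more until tissue was taken, and belong to batch 1. Their age is given as 6 to 8 weeks, and with that time in shared cages it may not be the age at tissue collection. No transgene or mutation beyond the strain backgrounds is named in the labels. C3H/HeJ is an inbred strain known for a defective Toll-like receptor 4, and the backgrounds differ at many other loci. Whether the 4 libraries of a strain are 4 mice is not stated in the labels, and the p-values cover spread between libraries, which may be technical.

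Interferons are secreted proteins that cells release on sensing viral or bacterial nucleic acid. Type I interferons, such as interferon beta, and type III interferons, the lambda family, bind separate receptors but both act through the factor ISGF3, which holds Stat2 and Irf9 and binds the interferon-stimulated response element in target promoters. Interferon gamma, the type II interferon made by T cells and natural killer cells, has a receptor of its own and acts on promoters that hold the gamma-activated site. In the gut the epithelium responds mainly to the lambda family, and many of these genes are transcribed at a low level without infection.

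Sequence upstream of the start shows how many of these genes carry those elements. The RefSeq promoter table (build GRCm38.p6) held a window for 38 of the 51 genes, and the 250 bases before the annotated start were searched on both strands. The response element was searched as GAAA, any 2 bases and GAAA, and was found in 19 of the 38 (50%), against 3.46% of all 27025 genes with a window. The gamma-activated site was searched as TTC, any 3 bases and GAA, and was found in 10 of the 38 (26.3%), against 8.13% of those genes. The 120 bases before the start are printed for 5 genes that were picked after the search to show the elements, with matches in capitals.
Isg15 (chr4:156200819-156200938, minus strand): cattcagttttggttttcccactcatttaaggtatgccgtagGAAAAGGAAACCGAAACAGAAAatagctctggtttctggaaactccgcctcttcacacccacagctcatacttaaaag
Ifit1 (chr19:34640769-34640888, plus strand): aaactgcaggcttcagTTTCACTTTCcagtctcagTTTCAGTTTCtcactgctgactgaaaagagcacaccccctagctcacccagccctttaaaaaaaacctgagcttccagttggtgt
Igtp (chr11:58199436-58199555, plus strand): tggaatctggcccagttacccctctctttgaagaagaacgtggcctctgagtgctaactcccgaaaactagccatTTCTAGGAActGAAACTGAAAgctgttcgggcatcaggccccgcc
Irgm2 (chr11:58214857-58214976, plus strand): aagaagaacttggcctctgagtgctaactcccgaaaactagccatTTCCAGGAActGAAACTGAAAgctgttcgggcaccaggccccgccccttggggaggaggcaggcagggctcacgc
Tgtp2 (chr11:49064213-49064332, minus strand): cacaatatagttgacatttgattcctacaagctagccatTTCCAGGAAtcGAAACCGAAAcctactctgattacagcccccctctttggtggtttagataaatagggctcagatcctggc
Isg15 holds 3 overlapping copies of the response element and Ifit1 holds 2 separate copies on the opposite strand. In Igtp, Irgm2 and Tgtp2, which encode immunity-related GTPases, the gamma-activated site and the response element lie side by side with 2 bases between them. A match is a run of letters and no measured binding site. The reference genome is of a B6 mouse, so these are B6 letters and the C3H alleles were not examined.

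The same stretches are given for the genes that differed between the strains and had a window, first those higher in C3H (Ifi44l, Cmpk2 and Ifitm1) and then those lower (Socs1, Ifih1 and Oasl2).
Ifi44l (chr3:151762892-151763011, minus strand): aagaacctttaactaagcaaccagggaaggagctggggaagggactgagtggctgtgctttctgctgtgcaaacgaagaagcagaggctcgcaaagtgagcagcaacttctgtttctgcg
Cmpk2 (chr12:26469095-26469214, plus strand): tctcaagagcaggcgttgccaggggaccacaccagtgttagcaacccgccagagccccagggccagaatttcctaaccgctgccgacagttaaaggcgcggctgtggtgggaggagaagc
Ifitm1 (chr7:140967956-140968075, plus strand): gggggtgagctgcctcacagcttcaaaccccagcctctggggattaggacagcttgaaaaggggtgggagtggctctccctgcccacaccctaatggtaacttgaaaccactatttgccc
Socs1 (chr16:10785537-10785656, minus strand): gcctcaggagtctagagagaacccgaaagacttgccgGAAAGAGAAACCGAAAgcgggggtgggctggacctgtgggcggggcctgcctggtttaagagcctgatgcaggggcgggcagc
Ifih1 (chr2:62646256-62646375, minus strand): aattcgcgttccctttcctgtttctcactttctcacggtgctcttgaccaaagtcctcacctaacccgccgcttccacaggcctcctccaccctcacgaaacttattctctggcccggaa
Oasl2 (chr5:114896814-114896933, plus strand): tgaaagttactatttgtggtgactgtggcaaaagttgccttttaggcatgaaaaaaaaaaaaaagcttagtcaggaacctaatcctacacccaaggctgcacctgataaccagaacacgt
Of these 6 windows 1 held the response element, that of Socs1 with 2 overlapping copies, and 0 held the gamma-activated site within 250 bases. Of the 32 other genes with a window, none past the threshold, 18 held the response element and 10 the gamma-activated site.

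The libraries held 37205896 to 58251332 counts, and TMM scaling factors were 0.915 to 1.13. Enterocyte markers summed to 49234 to 76896 CPM (counts scaled to library size) in C3H and 56483 to 69449 CPM in B6, and Fabp6, which marks ileum, was at 0 to 0.157 CPM. Libraries differed in pancreatic transcripts, whose 10 markers summed to 7.77, 2901, 58.8 and 1294 CPM in C3H 1, 3, 4 and 5, against 249, 78.4, 7.26 and 9.03 CPM in B6 2, 3, 4 and 5. C3H 3, C3H 5, B6 2 and B6 3 were the 4 richest, and counts are also given without them, although C3H 4 at 58.8 CPM was close to B6 3. B6 3 also stands apart in B cell transcripts, with Ms4a1 at 7.38 CPM, against 0.0531 to 0.186 CPM in the other B6 libraries and 0.376 to 2.0 CPM in C3H.

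Most interferon-stimulated genes did not pass the test of strain, and those that passed went both ways. Among all 18025 genes tested 21.4% passed an adjusted p of 0.05 (edgeR quasi-likelihood test, Benjamini-Hochberg over all genes tested), 11.3% higher and 10.1% lower in C3H. Of the 51 genes 11 passed, which is 21.6% and close to that background. Higher in C3H were Ifi44l, Mx2, Cmpk2 and Ifitm1, and lower were Ido1, Parp9, Zbp1, Socs1, Ifih1, Usp18 and Oasl2. The median log2 fold change, C3H over B6, was -0.01 over the 51 genes and 0.03 over all genes tested, and 46 of the 51 (90.2%) lay within 1.5-fold, against 82.4% of all genes tested. The 4 libraries of one strain lay wholly outside those of the other for 11 of the 51 genes (21.6%), 4 with C3H above and 7 with C3H below, against 24.4% of all genes tested (12.7% above and 11.7% below).

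**Figure D1:**
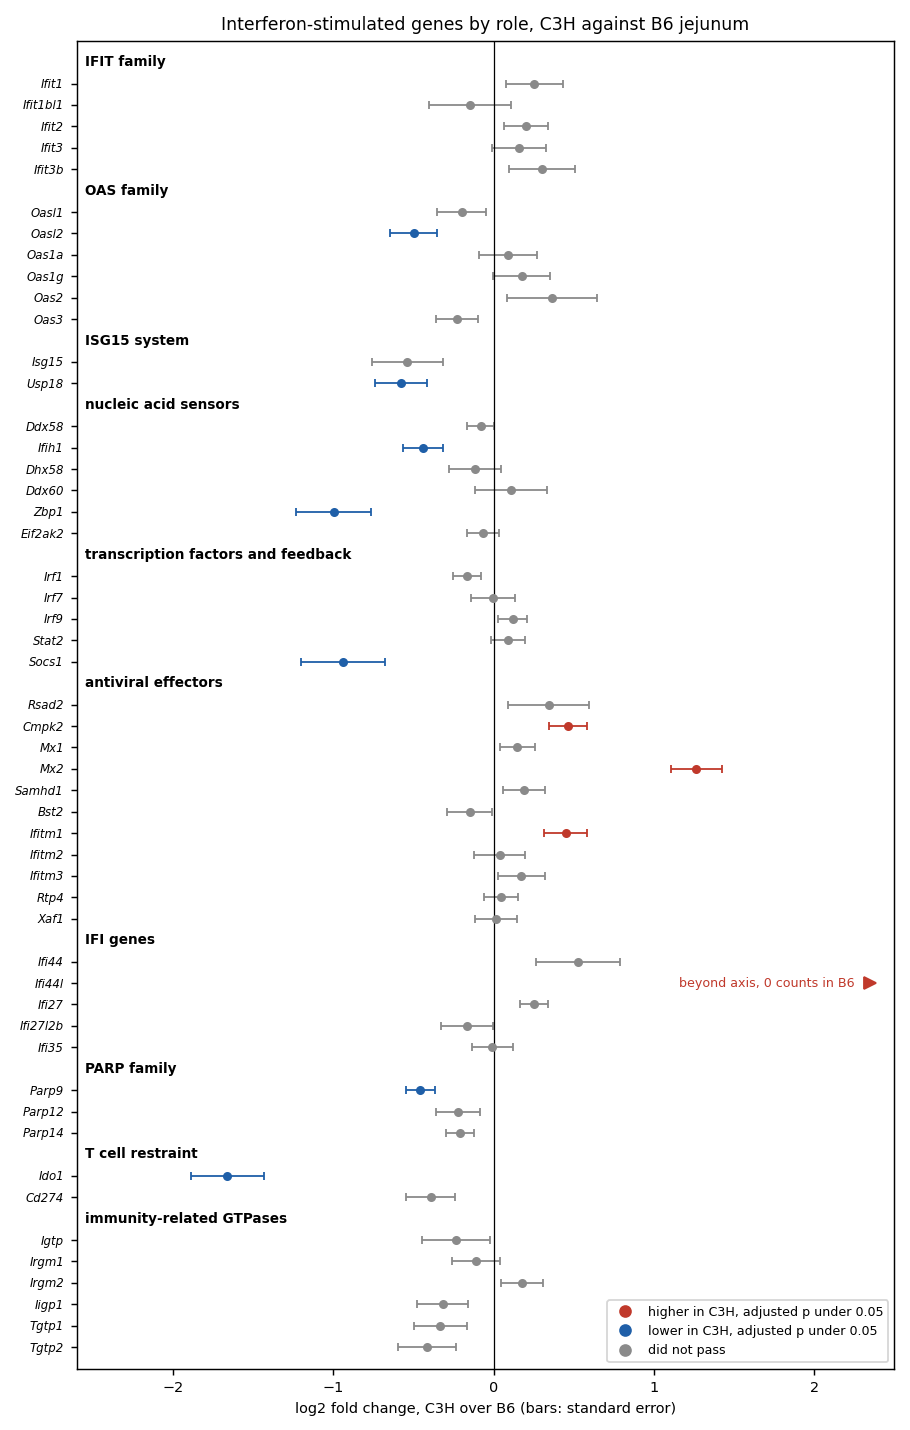
Log2 fold change of each of the 51 genes, C3H over B6, with its standard error as the bar, in 10 groups by role (edgeR, 4 libraries per strain). The 4 genes higher in C3H are red, the 7 lower are blue, and the other 40 are grey; Ifi44l lies beyond the axis because B6 has 0 counts.

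Without the 4 libraries richest in pancreatic transcripts, C3H 1 and 4 were set against B6 4 and 5. With 2 libraries per strain, 6 of the 51 genes were higher in C3H, 1 was lower, and 9.02% of all genes passed. The 6 were Ifi44l, Mx2, Cmpk2, Ifi44 (log2 fold change 1.33), Oas2 (1.04) and Rsad2 (0.98), and the 1 lower gene was Ido1. None of the 11 genes changed sign. The log2 fold changes of 4 of the lower genes were closer to 0 than with all libraries and did not pass, at -0.50 for Zbp1 (adjusted p = 0.341), -0.48 for Socs1 (0.300), -0.26 for Oasl2 (0.470) and -0.24 for Usp18 (0.493). Ifih1 (-0.43, adjusted p = 0.247) and Parp9 (-0.42, adjusted p = 0.168) kept most of their log2 fold change and did not pass, nor did Ifitm1 (0.60, adjusted p = 0.131). In B6 the 51 genes were higher in the libraries left out, 2 and 3, than in those kept, 4 and 5. Their median deviations in log2 CPM from the strain mean were 0.07 and 0.22, against -0.17 and -0.11. In C3H they were -0.14 and 0.13 in 3 and 5, against -0.11 and 0.16 in 1 and 4. The split thus cannot tell the pancreatic transcripts from this difference, and the part of either was not tested. In the 6 libraries that share replicate numbers, C3H and B6 3, 4 and 5, Zbp1, Ifih1, Usp18, Oasl2, Cmpk2 and Ifitm1 did not pass. The adjusted p was 0.0576 to 0.159 without the replicate number in the fit and 0.0746 to 0.245 with it as a block.

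The genes higher in C3H were 3 antiviral effectors and Ifi44l. Ifi44l (ENSMUSG00000039146), an interferon-induced gene on chromosome 3 next to its relative Ifi44, had 4.89, 4.42, 6.32 and 4.51 CPM in C3H, against 0, 0, 0 and 0 CPM in B6. It was detected in every C3H library and in none of the B6 libraries, with 894 counts in C3H and 0 in B6. At a floor of 3 counts over the B6 libraries, which covers counting error only, it was at least 309.7-fold higher in C3H (adjusted p = 7.73e-07). Its neighbour Ifi44 was present in both strains at 21.5, 16.1, 19.6 and 18.1 CPM in C3H, against 18.9, 17.3, 8.45 and 7.86 CPM in B6. C3H libraries lay together, whereas B6 2 and B6 3 reached the C3H range and B6 4 and B6 5 lay below it, and the strain difference did not pass (log2 fold change 0.52, SE 0.26, adjusted p = 0.192).

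Mx2 (ENSMUSG00000023341), a gene of the dynamin-like GTPase family, had 8.97, 7.89, 9.13 and 8.54 CPM in C3H, against 4.09, 4.51, 2.75 and 3.07 CPM in B6. Whether either strain makes a working protein from it was not examined. All C3H libraries lay above all B6 libraries, the log2 fold change was 1.27 (SE 0.16, adjusted p = 1.58e-04), and it passed in each of the 19 alternative settings. Mx1, a related gene, averaged 6.12 ± 0.393 CPM in C3H and 5.52 ± 0.564 CPM in B6 (SD, n = 4 each) and did not pass (log2 fold change 0.15, SE 0.11, adjusted p = 0.394). Of the 75-base words of the Mx2 transcripts 2.01% also occur in Mx1.

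Cmpk2 (ENSMUSG00000020638), a mitochondrial nucleotide kinase, had 72.3, 64.3, 76.0 and 82.1 CPM in C3H, against 50.9, 66.4, 48.0 and 48.4 CPM in B6. The strains overlapped, since B6 3 lay above C3H 3, while the other B6 libraries lay below all C3H libraries. The log2 fold change was 0.46 (SE 0.12, adjusted p = 0.0175), and without B6 2 or B6 5 it no longer passed (adjusted p = 0.0548 and 0.0523). Rsad2, which lies beside Cmpk2 on chromosome 12 in the opposite orientation and encodes viperin, an enzyme that makes a chain-terminating nucleotide, had 26.9, 18.9, 26.9 and 27.0 CPM in C3H, against 18.9, 32.6, 13.9 and 13.3 CPM in B6. B6 3 was the highest library and B6 4 and 5 the lowest, and Rsad2 did not pass (log2 fold change 0.34, SE 0.25, adjusted p = 0.392) except without B6 3 (log2 fold change 0.70, adjusted p = 0.0133) and without the 4 libraries richest in pancreatic transcripts.

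Ifitm1 (ENSMUSG00000025491), a membrane protein that blocks the fusion of enveloped viruses, had 10.7, 7.62, 7.93 and 7.36 CPM in C3H, against 5.90, 6.44, 5.67 and 6.63 CPM in B6. C3H 1 was the highest and the strains did not overlap, with a log2 fold change of 0.45 (SE 0.13, adjusted p = 0.0337). It no longer passed without C3H 1 (0.30, adjusted p = 0.0835), C3H 4 (0.0517), B6 2 (0.0875), B6 3 (0.0607) or B6 4 (0.0835), or when scaled by library totals (0.0664). Ifitm3, the most abundant antiviral effector per length here at 54.8 ± 8.50 CPM per kb in C3H and 48.6 ± 8.91 CPM per kb in B6 (SD, n = 4 each), had 45.2, 35.6, 36.3 and 31.5 CPM in C3H, against 38.6, 32.6, 24.7 and 36.0 CPM in B6, with wide overlap (log2 fold change 0.17, SE 0.15, adjusted p = 0.455). Ifitm2 was at 10.4 ± 2.30 CPM in C3H and 10.1 ± 1.40 CPM in B6, and 42% of its transcript words are shared with other genes, so its level is uncertain.

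The remaining antiviral effectors that did not pass were Samhd1, which destroys nucleotides needed by retroviruses, Bst2, the tetherin that holds budding virions, Rtp4, which binds viral RNA, and Xaf1, which promotes cell death. Their log2 fold changes were between -0.15 and 0.19. Samhd1 had 179, 249.97, 262 and 295 CPM in C3H, against 209.8, 219, 224 and 212 CPM in B6, and C3H 1 was the lowest of all 8 libraries. Without C3H 1 Samhd1 was higher in C3H (0.30, adjusted p = 0.0266). Of the 11 antiviral effectors 3 were higher in C3H and 0 were lower (27.3% called, against 21.4% of all genes tested), and 10 had a positive log2 fold change, against 53.9% of all genes tested.

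**Figure D2:**
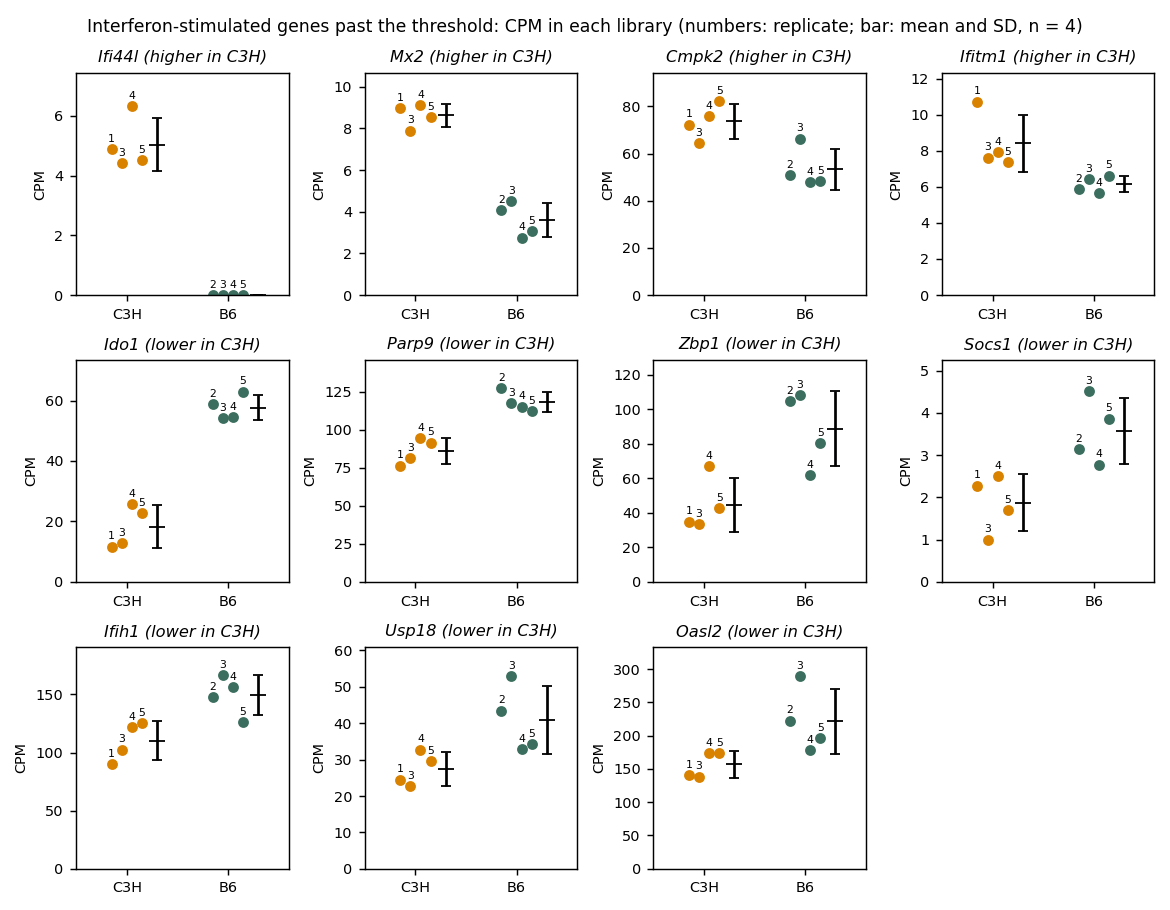
CPM of the 11 genes past the threshold in each library, with C3H left of B6, library numbers above the points, and the mean with its SD beside each group (n = 4). Ifi44l is at 0 in all B6 libraries; the strains overlap for Cmpk2 and Zbp1 and do not overlap for the other 9.

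The genes lower in C3H were listed in other groups, among them the nucleic acid sensors and the OAS family. Ido1 (ENSMUSG00000031551), the enzyme that breaks down tryptophan and so restrains T cells, had 11.7, 12.9, 25.7 and 22.7 CPM in C3H, against 58.9, 54.1, 54.4 and 62.9 CPM in B6. All C3H libraries lay far below all B6 libraries, with C3H 4 and 5 well above C3H 1 and 3, while the B6 libraries differed by 1.16-fold at most. The log2 fold change was -1.66 (SE 0.23, adjusted p = 3.28e-04), or 3.16-fold lower, and it passed in each of the 19 alternative settings. Cd274, the gene of the T cell inhibitory ligand PD-L1, had 8.11, 7.03, 7.47 and 5.83 CPM in C3H, against 9.40, 12.1, 7.93 and 7.99 CPM in B6 and did not pass (log2 fold change -0.39, SE 0.15, adjusted p = 0.0987).

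Zbp1 (ENSMUSG00000027514), a sensor of left-handed nucleic acid that triggers necroptosis, had 34.9, 33.4, 66.9 and 42.7 CPM in C3H, against 105, 108, 61.8 and 80.2 CPM in B6. C3H 4 lay above B6 4, so the strains overlapped, and the log2 fold change was -1.0 (SE 0.23, adjusted p = 0.0106). Ifih1 (ENSMUSG00000026896), the gene of the RNA sensor MDA5, had 90.0, 103, 122 and 126 CPM in C3H, against 148, 167, 156 and 126 CPM in B6. The highest C3H library, C3H 5, lay just under the lowest B6 library, B6 5, and the log2 fold change was -0.44 (SE 0.12, adjusted p = 0.0260). It no longer passed without C3H 3 (adjusted p = 0.0587), B6 3 (0.0812) or B6 4 (0.0588).

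The other 4 nucleic acid sensors did not pass. Ddx58, the gene of the RNA sensor RIG-I, averaged 96.4 ± 8.66 CPM in C3H and 102 ± 5.0 CPM in B6 (SD, n = 4 each), and Dhx58, the gene of LGP2, which regulates RIG-I and MDA5, averaged 21.0 ± 3.41 CPM in C3H and 22.8 ± 4.93 CPM in B6. Ddx60, a helicase gene and the most abundant sensor per length over both strains, had 118, 162, 248 and 208 CPM in C3H, against 198, 203, 164 and 118 CPM in B6. Its libraries differed 2.10-fold within C3H and 1.72-fold within B6, more than the strains (log2 fold change 0.11, SE 0.22, adjusted p = 0.786). Eif2ak2, the gene of the kinase PKR that stops translation on double-stranded RNA, had a log2 fold change of -0.07 (SE 0.10, adjusted p = 0.702).

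Usp18 (ENSMUSG00000030107), which removes Isg15 from proteins and damps the type I receptor, had 24.5, 22.8, 32.8 and 29.6 CPM in C3H, against 43.5, 52.9, 32.8 and 34.3 CPM in B6. C3H 4 and B6 4 were almost level, and the other libraries of the strains lay farther apart. The log2 fold change was -0.58 (SE 0.16, adjusted p = 0.0268), and without C3H 1, C3H 3, B6 2 or B6 3 it no longer passed (adjusted p = 0.0556, 0.0719, 0.0527 and 0.0683). Isg15 itself, the ubiquitin-like modifier, had 40.9, 37.7, 57.5 and 57.0 CPM in C3H, against 73.4, 99.6, 44.9 and 62.3 CPM in B6. The strains overlapped at C3H 4 and 5 and B6 4, and Isg15 did not pass (log2 fold change -0.54, SE 0.22, adjusted p = 0.117) except without B6 4 (-0.70, adjusted p = 0.0260), with DESeq2 (0.0443) and with no filter on low counts (0.0442).

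Oasl2 (ENSMUSG00000029561), an oligoadenylate synthetase-like gene, had 141, 139, 174 and 174 CPM in C3H, against 223, 289.9, 179 and 196 CPM in B6. All C3H libraries lay below all B6 libraries, B6 3 was far above the rest, and the log2 fold change was -0.50 (SE 0.15, adjusted p = 0.0350). It no longer passed without C3H 1 (adjusted p = 0.0696), C3H 3 (0.0864), B6 2 (0.0581) or B6 3 (-0.35, 0.0904). Of the other OAS genes, whose products make the messenger that activates RNase L, Oas1a, Oas1g, Oas2 and Oas3 had log2 fold changes between -0.23 and 0.37, and 0 passed. Oasl1, the most abundant per length, had 113, 113, 149 and 161 CPM in C3H, against 148, 193, 128 and 146 CPM in B6 with overlap (log2 fold change -0.20, SE 0.15, adjusted p = 0.407). Oas2 had 14.5, 12.9, 12.9 and 16.1 CPM in C3H, against 13.4, 17.3, 6.15 and 7.08 CPM in B6, with B6 4 and 5 under all other libraries. Oas1a and Oas1g share 47.6% and 36.9% of their transcript words with each other, so their split is uncertain.

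Parp9 (ENSMUSG00000022906), which pairs with the ubiquitin ligase Dtx3l to amplify interferon signalling, had 76.4, 81.2, 94.7 and 91.5 CPM in C3H, against 128, 117, 115 and 112 CPM in B6. The strains did not overlap and the log2 fold change was -0.46 (SE 0.09, adjusted p = 0.00378). It passed in every setting except without the 4 libraries richest in pancreatic transcripts. Parp12, the most abundant of these genes per length, had 96.4, 121, 149 and 145 CPM in C3H, against 143, 169, 151 and 133 CPM in B6 (log2 fold change -0.22, SE 0.14, adjusted p = 0.293). Parp14, which modifies proteins with ADP-ribose, had 176, 157, 173 and 187 CPM in C3H, against 226, 195, 188 and 191 CPM in B6. For Parp14 the strains did not overlap, yet it did not pass (log2 fold change -0.21, SE 0.09, adjusted p = 0.130).

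Socs1 (ENSMUSG00000038037), the feedback inhibitor of the receptor kinases, was scarce at 2.28, 0.998, 2.51 and 1.69 CPM in C3H, against 3.13, 4.51, 2.77 and 3.86 CPM in B6. The strains did not overlap and C3H 3 was the lowest library. The log2 fold change was -0.94 (SE 0.26, adjusted p = 0.0253), and without C3H 5, B6 3 or B6 5 it no longer passed (adjusted p = 0.0562, 0.0729 and 0.0611). The transcription factors did not pass. Irf7, the master factor of interferon gene induction, had 168, 171, 218 and 225 CPM in C3H, against 182, 244, 177 and 179.8 CPM in B6, which gave a log2 fold change of -0.002 (SE 0.14, adjusted p = 0.993). Irf1, Irf9 and Stat2 had log2 fold changes of -0.17, 0.12 and 0.09.

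No member of 2 groups passed. The 5 IFIT genes (Ifit1, Ifit1bl1, Ifit2, Ifit3 and Ifit3b), whose products bind foreign RNA and block its translation, had log2 fold changes between -0.15 and 0.30, and 4 of 5 were positive. Ifit1bl1, the most abundant per length, had 126, 133, 251 and 196 CPM in C3H, against 220.2, 270.5, 131 and 159.9 CPM in B6. Its highest library was B6 3 and its lowest C3H 1, and the libraries differed by 1.99-fold within C3H and 2.06-fold within B6. The 6 immunity-related GTPase genes (Igtp, Irgm1, Irgm2, Iigp1, Tgtp1 and Tgtp2), whose products act on vacuoles of intracellular pathogens, had log2 fold changes between -0.42 and 0.18, and 5 of 6 were negative. Igtp, the most abundant per length, had 54.7, 59.4, 97.5 and 68.9 CPM in C3H, against 107, 93.5, 58.5 and 70.8 CPM in B6 (log2 fold change -0.23, SE 0.21, adjusted p = 0.494). Tgtp1 and Tgtp2 share 77.2% and 81.4% of their transcript words with other genes and Ifit3 and Ifit3b 41.1% and 35.7%, so the list is not free of copies.

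The last genes are the remaining IFI members. Ifi27l2b was the most abundant of all 51 genes per length, at 905 ± 189.6 CPM per kb in C3H and 1016 ± 148 CPM per kb in B6 (SD, n = 4 each), and had 816, 806, 1149.6 and 1188 CPM in C3H, against 986, 1349, 1061 and 1048 CPM in B6. B6 3 was the highest and C3H 3 the lowest library, and the strains overlapped (log2 fold change -0.17, SE 0.16, adjusted p = 0.529). Ifi27, a gene of a small mitochondrial protein, had 46.3, 46.6, 48.6 and 56.6 CPM in C3H, against 39.3, 42.6, 39.4 and 44.99 CPM in B6. The strains did not overlap for Ifi27, which did not pass (log2 fold change 0.25, SE 0.09, adjusted p = 0.0685) except when scaled by library totals (0.31, adjusted p = 0.0263). Ifi35 averaged 123 ± 22.6 CPM in C3H and 123 ± 10.5 CPM in B6, with a log2 fold change of -0.01. Per length and averaged over both strains the next most abundant were Ifit1bl1, at 78.1 ± 25.9 CPM per kb in C3H and 86.5 ± 27.5 CPM per kb in B6, and Isg15, at 63.8 ± 13.9 CPM per kb in C3H and 92.7 ± 30.3 CPM per kb in B6. The least abundant apart from Ifi44l in B6 was Tgtp1, at 0.559 ± 0.0713 CPM per kb in C3H and 0.707 ± 0.125 CPM per kb in B6.

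Upstream of these genes, interferon transcripts were close to the limit of detection. Of 10 interferon genes listed 0 had enough counts to be tested and 4 were at 0 in every library. Ifng had 0, 2, 2 and 0 counts in C3H, against 5, 7, 8 and 2 counts in B6, 4 and 22 counts in all, and did not pass when tested without the filter (adjusted p = 0.0618). Of the lambda genes, Ifnl2 had 0 counts in C3H and 6 in B6, and Ifnl3 had 2 counts in C3H 1 and 6 counts in B6 3. B6 3 held 4 of the 6 Ifnl2 counts and all Ifnl3 counts of its strain, and B6 4 held the other 2 Ifnl2 counts. B6 3 was the B6 library highest for 29 of the 51 interferon-stimulated genes, against 22.2% of all genes tested. B6 4 was the lowest for 30, against 27.6%. In C3H the libraries 4 and 5, where the 51 genes were higher, had 0 counts of Ifnl2 and Ifnl3. A link between these few counts and the 51 genes was not tested.

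Receptor genes did not pass. Of 6 receptor genes 0 passed: Ifnar1, of the type I receptor, averaged 56.8 ± 5.66 CPM in C3H and 57.1 ± 4.07 CPM in B6 (log2 fold change -0.01, SE 0.09, adjusted p = 0.960), and Ifnlr1, of the lambda receptor, averaged 46.8 ± 7.36 CPM in C3H and 43.3 ± 4.67 CPM in B6 (log2 fold change 0.11, SE 0.12, adjusted p = 0.564, SD, n = 4 each). Of 15 tested genes of sensing and induction 0 were higher and 2 were lower in C3H (13.3%, under the 21.4% of all genes tested), namely Irf8 (log2 fold change -0.50, SE 0.10, adjusted p = 0.00461), a factor of myeloid cells, and Ikbke (log2 fold change -0.43, SE 0.10, adjusted p = 0.0123), a kinase that activates Irf3. Of 7 negative regulators 0 were higher and 1 was lower (14.3%), Socs3, a relative of Socs1, with 31.0, 39.6, 46.4 and 39.2 CPM in C3H, against 68.7, 97.6, 74.5 and 79.6 CPM in B6 (log2 fold change -1.04, SE 0.14, adjusted p = 2.66e-04).

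A further 28 interferon-stimulated genes were read from a second list. Of these 2 were higher and 8 lower in C3H (35.7%, against 21.4% of all genes tested), with a median log2 fold change of -0.27. The higher ones were Parp11 (log2 fold change 0.61, SE 0.09, adjusted p = 4.79e-04) and Tor3a (log2 fold change 0.62, SE 0.11, adjusted p = 0.00170). The lower ones were Nlrc5 (log2 fold change -1.55, SE 0.17, adjusted p = 7.02e-05), the activator of MHC class I genes, Ly6e (log2 fold change -1.15, SE 0.14, adjusted p = 1.46e-04), Tap1 (log2 fold change -0.88, SE 0.13, adjusted p = 6.88e-04), which loads class I molecules, Nmi (log2 fold change -0.86, SE 0.12, adjusted p = 3.57e-04), Cxcl10 (log2 fold change -0.91, SE 0.19, adjusted p = 0.00597), Pml (log2 fold change -0.40, SE 0.08, adjusted p = 0.00581), Ifi47 (log2 fold change -0.39, SE 0.11, adjusted p = 0.0273) and Parp10 (log2 fold change -0.32, SE 0.10, adjusted p = 0.0483). Nlrc5 had 6.06, 6.57, 6.96 and 5.45 CPM in C3H, against 24.4, 20.1, 14.4 and 14.6 CPM in B6, with no overlap. Whether the calls of these 28 genes hold in the alternative settings was not examined. Among the 51 genes the lower calls fell from 7 to 1 without the 4 libraries richest in pancreatic transcripts.

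T cell transcripts moved with strain as well. Of 12 T cell and intraepithelial lymphocyte markers 11 were lower in C3H and 0 higher (91.7% called, against 21.4% of all genes tested). They summed to 186 to 296 CPM in C3H and 482 to 521 CPM in B6, with none at 0. Of 8 B and plasma cell markers 2 were lower and 0 higher (25% called), and 7 had a negative log2 fold change. Of 5 tested natural killer and innate lymphoid markers 1 was higher and 1 lower (40% called). Of 10 macrophage and dendritic cell markers 4 were higher in C3H and 0 lower (40% called). Their sums were 388 to 451 CPM in C3H and 330.1 to 392.4 CPM in B6, and of 10 enterocyte markers 0 passed. In bulk tissue fewer cells of a type and less RNA per cell cannot be told apart, and the part of these cells in the lower genes, Ido1 and Zbp1 among them, was not tested.

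Within a strain the genes tended to be high or low together in a library. For each gene the mean log2 CPM of its strain was subtracted, so that the strain difference drops out. In C3H the median deviation of the 51 genes was -0.11 in C3H 1, -0.14 in C3H 3, 0.16 in C3H 4 and 0.13 in C3H 5. In B6 it was 0.07 in B6 2, 0.22 in B6 3, -0.17 in B6 4 and -0.11 in B6 5. Over all genes tested the medians were within 0.01 of 0 in each library. C3H 4 lay above its strain mean for 44 of the 51 genes, B6 3 for 42, B6 4 for 5 and C3H 3 for 4, whereas between 47.3% and 52.0% of all genes tested lay above in any library.

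**Figure D3:**
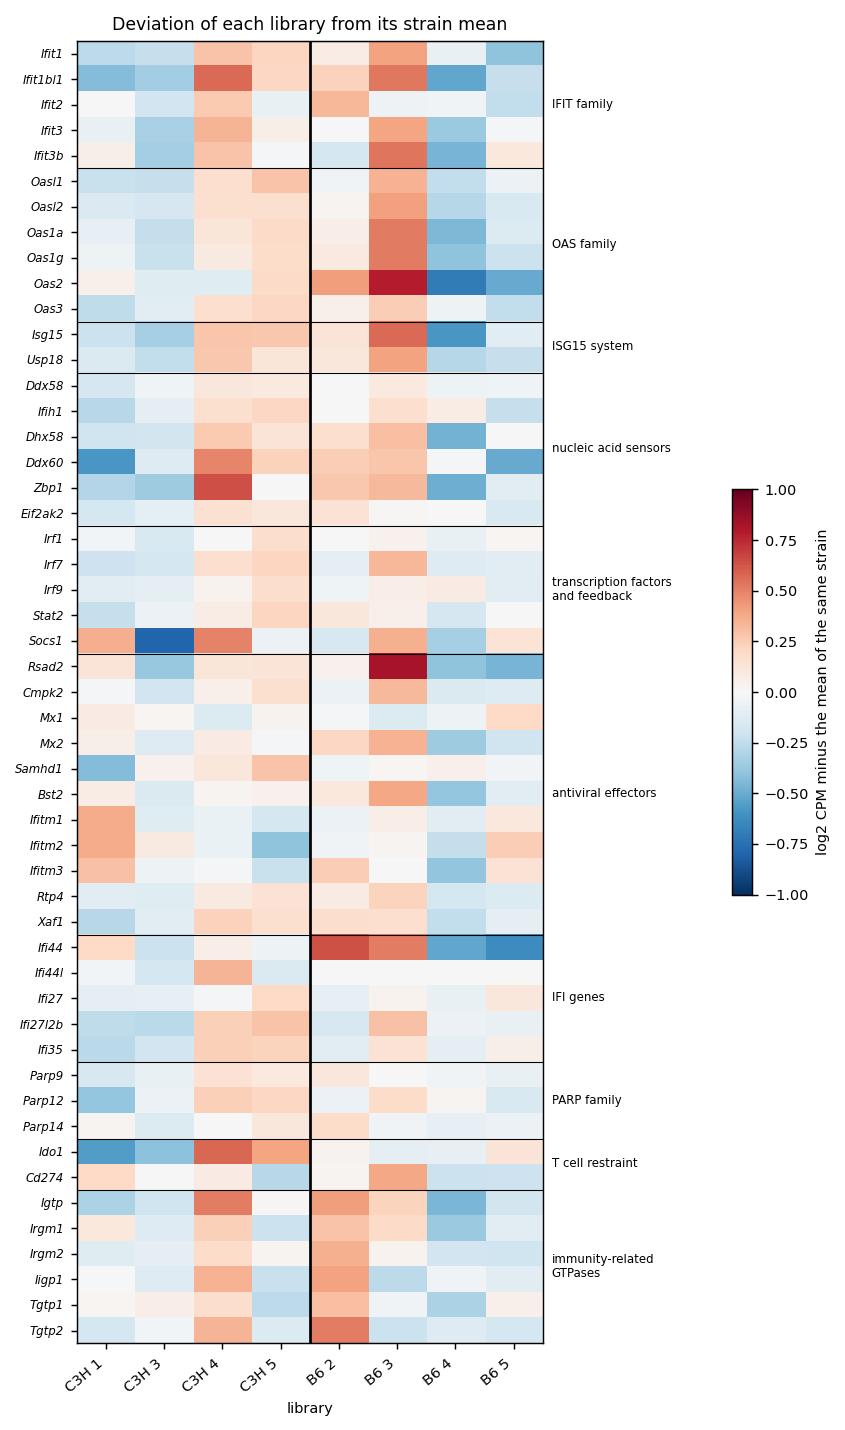
Deviation of each library from the mean log2 CPM of its own strain, for 51 genes in rows by role and 8 libraries in columns, C3H left of B6; red is above the strain mean and blue below. C3H 4, C3H 5 and B6 3 are mostly red and C3H 3 and B6 4 mostly blue, and within C3H Ifitm1, Ifitm2 and Ifitm3 are highest in C3H 1.

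In C3H, libraries 4 and 5 lay above 1 and 3 for 32 of the 51 genes, against 27.5% of all genes tested. In B6, libraries 2 and 3 lay above 4 and 5 for 31 of the 51 genes, against 12.6% of all genes tested. C3H 4 was the highest C3H library for 27 of the 51 genes and B6 3 the highest B6 library for 29, against 19.1% and 22.2% of all genes tested. B6 4 was the lowest B6 library for 30 of the 51 genes, against 27.6% of all genes tested. The B6 gap was widest for Oas2, Ifi44 and Rsad2: Ifi44 had 18.9 and 17.3 CPM in B6 2 and 3 and 8.45 and 7.86 CPM in B6 4 and 5. At the median of the 51 genes the highest library was 1.39 times the lowest in C3H and 1.52 times in B6, against 1.34 and 1.31 times for all genes tested, and 1.24 and 1.23 times for the 10436 genes of at least 5 CPM. Mx2 in C3H (1.16 times) and Samhd1 in B6 (1.07 times) varied least.

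The scaling bears on the C3H pattern more than on the B6 pattern. On library totals alone the medians in C3H 1, 3, 4 and 5 were 0.04, -0.07, 0.10 and -0.03, while those of all genes tested were 0.14, 0.06, -0.06 and -0.15. Changing the scaling shifts all genes of a library by about the same amount, and this put C3H 1 above 0 and C3H 5 below it. Libraries C3H 4 and 5 then lay above 1 and 3 for 15 of the 51 genes, against 8.27% of all genes tested. In B6 2, 3, 4 and 5 the medians on library totals were 0.12, 0.23, -0.25 and -0.09, and 37 of the 51 genes were higher in both B6 2 and 3 than in both B6 4 and 5, against 18.2% of all genes tested.

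**Figure D4:**
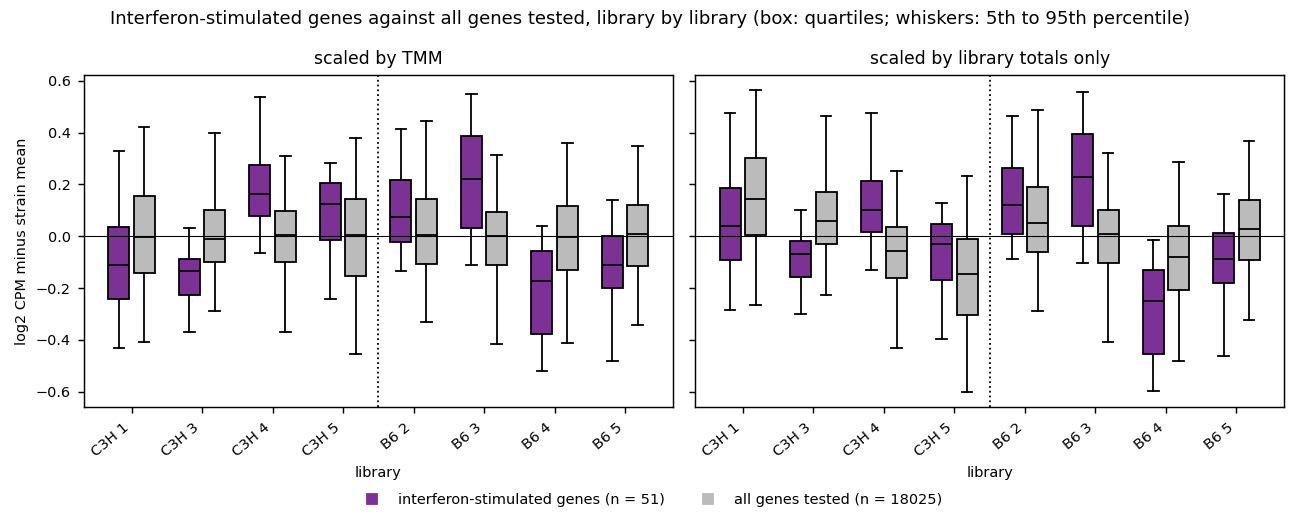
Deviation from the strain mean of log2 CPM in each library, for the 51 genes (purple) beside all 18025 genes tested (grey), scaled by TMM on the left and by library totals on the right; boxes are quartiles and whiskers the 5th to 95th percentile. The purple boxes of B6 3 lie above and those of B6 4 below the grey ones, and a change of scaling moves both boxes of a library together.

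The families did not follow 1 common order. In B6 3 the IFIT and OAS genes had median deviations of 0.40 and 0.47, and in B6 2 of 0.07 and 0.06. The immunity-related GTPases had 0.38 in B6 2 and -0.001 in B6 3. In C3H 4 these GTPases were at 0.29, as the IFIT genes were, but in C3H 5 they were at -0.18, while the OAS genes were at 0.19. Tgtp2 was 12.4 CPM in B6 2, against 7.45 to 7.89 CPM in the other B6 libraries, and Iigp1 was likewise highest in B6 2.

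**Figure D5:**
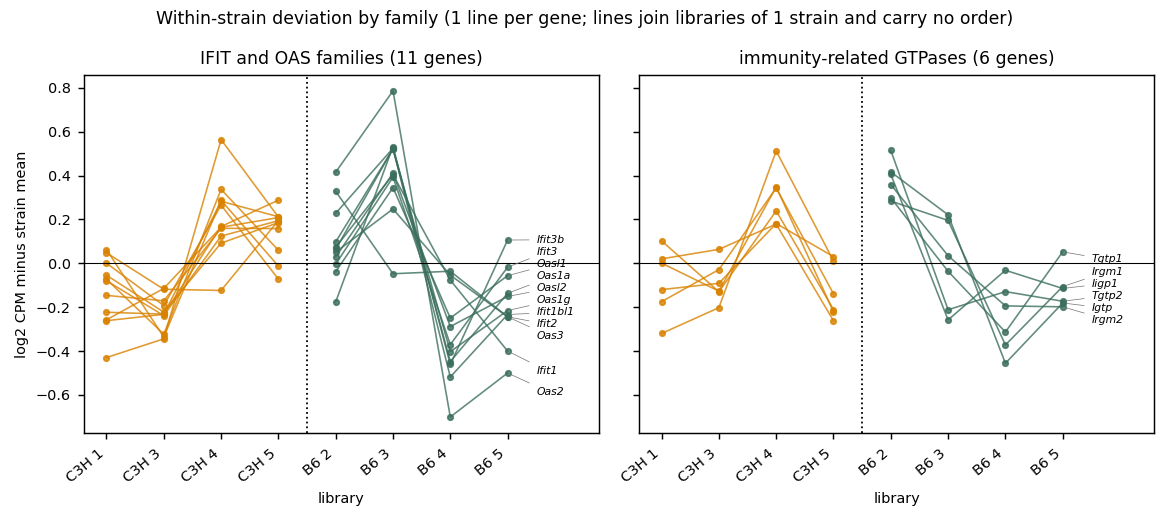
Deviation from the strain mean of log2 CPM, 1 line per gene, for the 11 IFIT and OAS genes on the left and the 6 immunity-related GTPases on the right, C3H (orange) left of B6 (green). In B6, 10 of the 11 IFIT and OAS genes are highest in B6 3 and all 6 GTPases in B6 2.

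Other transcripts varied between the same libraries. Enterocyte markers deviated by a median of -0.22, -0.13, 0.08 and 0.28 in C3H 1, 3, 4 and 5, and by -0.09, 0.03, 0.15 and -0.01 in B6 2, 3, 4 and 5. Crypt and proliferation markers deviated by 0.40, 0.07, -0.14 and -0.43 in C3H and by 0.20, 0.01, -0.32 and 0.02 in B6. With TMM scaling the interferon-stimulated genes were high in the C3H libraries with more enterocyte and less crypt RNA, and in B6 they were not. On library totals the medians of the 51 genes were 0.04 in C3H 1 and -0.03 in C3H 5, and the markers were not examined on that scaling. Pancreas markers deviated by -7.46, 4.81, -1.08 and 3.58 in C3H 1, 3, 4 and 5, and by 4.25, 2.54, -3.88 and -2.92 in B6 2, 3, 4 and 5. In B6 they were thus higher in the same libraries, 2 and 3, as the interferon-stimulated genes, and in C3H they were higher in 3 and 5, where those genes were higher in 4 and 5. B and plasma cell markers were at 0.58 in B6 3 and -0.45 in B6 4. T cell markers were at -0.19, -0.15, 0.04 and 0.33 in C3H and at -0.16, 0.05, 0.00 and 0.05 in B6. The part of these transcripts in the shared variation was not tested.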

How the data were processed

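Raw counts per gene were deposited by the authors for 4 C3H and 4 B6 libraries. Per the submitters' processing notes, reads were aligned with STAR 2.7.9a to GRCm39 and counted with HTSeq 2.0.2; which annotation release and strand setting were used is not given in the sources used here. Reads of both strains were aligned to 1 reference of B6 origin, and the effect on C3H counts was not tested. Symbols came from GENCODE M21, an annotation of GRCm38, which named 51948 of the 56941 identifiers and left 4993 unnamed, so gene coordinates are given only for promoter windows. The 217 listed symbols each matched 1 identifier.

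Counts were fitted in edgeR 4.0.16 (R 4.3.3) and TMM-scaled; genes passed filterByExpr (minimum count 10), and the quasi-likelihood test of strain was adjusted over 18025 genes at a threshold of 0.05. Standard errors are the fold change divided by the root of F. CPM use TMM-scaled library sizes, CPM per kb the summed exon length, and deviations log2 CPM with a prior count of 2. Shared sequence is the share of 75-base words of a gene's transcripts found in another gene. The fit was also run on simulated counts, in which genes varied independently of each other, so shared variation between libraries was not covered. Totals of 37205896 to 58251332 counts bound the precision, and the floor of 3 counts covers counting error only.

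The members, gene lists and tests were chosen with earlier results of these data known. Values are given for members past the threshold, those with 0 counts in a strain and the most abundant per role, with other named list genes past the threshold and Ifng, Ifnar1 and Ifnlr1 (1 other gene of this rule is not reported here); Ifi44, Rsad2, Oas2, Isg15, Samhd1, Cd274, Ifi27 and Parp14 were added with their values known. The settings varied were DESeq2 1.42.0 and its size factors, upper-quartile factors, library totals, 2 filters, limma-voom (limma 3.58.1), a robust fit, each library left out, the 6 libraries with shared replicate numbers with and without a block, and leaving out 4 libraries richest in pancreatic transcripts.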

Additional observations from a re-analysis of the deposited data

Results flagged for a closer look

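In 6 of 101 sets of 4 libraries, each a gene in a strain, 1 library lay far from the other 3 (5.94%, where chance alone flags about 5%). Irf7 was at 244 CPM in B6 3, against 177 to 182 CPM in the other B6 libraries, and Cmpk2 was at 66.4 CPM in B6 3, against 48.0 to 50.9 CPM. Rsad2 was at 18.9 CPM in C3H 3, against 26.9 to 27.0 CPM in the other C3H libraries. Ifitm1 was at 10.7 CPM in C3H 1, against 7.36 to 7.93 CPM. Parp14 was at 226 CPM in B6 2, against 188 to 195 CPM, and Tgtp2 was at 12.4 CPM in B6 2, against 7.45 to 7.89 CPM.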

How the results depend on the processing

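Of the 209 alternative values of the 11 genes past the threshold, 168 stayed past it, 41 no longer passed, and 0 changed sign. Ido1, Mx2 and Ifi44l passed in all 19 alternatives. Of 759 alternative values of the other 40 genes, 9 passed and 43 changed sign. With single libraries left out, the count of members higher in C3H was 2 to 4 (2 without B6 2), that of members lower was 3 to 7 (4 without C3H 3, 3 without B6 3), the members' median log2 fold change was -0.09 to 0.04, and the count over all genes was 3099 to 3682. Without the 4 libraries richest in pancreatic transcripts the counts were 6 higher, 1 lower and 1675 over all genes. On library totals the median deviation of C3H 5 was -0.031, and the split over all genes was 2194 higher and 1402 lower, against 2040 and 1817.

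Same-numbered libraries, C3H and B6 3, 4 and 5, had correlations of deviations across genes of 0.0058, 0.18 and -0.052. Differently numbered libraries had correlations of -0.24 to 0.37. These values cannot show whether the replicate numbers pair the libraries, since libraries prepared together need not deviate together. In the 6 libraries that share numbers, 2 members were higher and 3 lower without the replicate block, and 2 and 3 with it; the calls over all genes were 3212 and 2919.

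Log2 fold changes that changed sign were all of genes that did not pass. Without the 4 libraries richest in pancreatic transcripts these were Ifit1bl1 0.36, Dhx58 0.15, Irf7 0.10, Bst2 0.16, Igtp 0.22 and Irgm1 0.30. In the 6 shared-number libraries without and with the replicate block they were Ifit1bl1 0.029 and 0.060, Eif2ak2 0.026 and 0.024, Irf7 0.014 and 0.022, Ifitm2 -0.13 and -0.13, and Ifi35 0.023 and 0.015, with Dhx58 0.0058 in the block alone and Igtp 0.0024 without it alone. On library totals Irf7 was 0.044 and Ifi35 0.035, and with limma-voom Irf7 was 0.0011. Xaf1 was -0.0028 with DESeq2 size factors, -0.018 with no filter and -0.0028 with DESeq2. With single libraries left out the ranges were -0.37 to 0.048 for Ifit1bl1, -0.045 to 0.29 for Oas1a, -0.069 to 0.26 for Ddx60, -0.079 to 0.12 for Irf7, -0.11 to 0.16 for Ifitm2, -0.011 to 0.13 for Rtp4, -0.068 to 0.088 for Xaf1 and -0.091 to 0.065 for Ifi35. The cause of these changes was not tested. The filter at a mean of 100 counts left 50 members, without Tgtp1. With few counts, the interferon genes and Socs1 are limited by depth, and with 4 libraries per strain small differences may go uncalled.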
